A study of Mus musculus with 8 samples.

Results

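The genes examined here are the reprogramming factors Pou5f1, Sox2, Klf4 and Myc together with Sall4 and Lin28a, 6 genes in all, in mouse pre-iPSCs, cells that started on the way to induced pluripotency and stopped short of it. All probe sets annotated to these genes alone were taken, which gave 9 of the 45037 probe sets tested: 1 each for Pou5f1, Sox2 and Myc, and 2 each for Klf4, Lin28a and Sall4. The probe sets were found by gene name. The cells were kept in standard embryonic stem cell medium with siRNA for 3 days. Control cells (n = 3 arrays) received siRNA to luciferase, a transcript mouse cells lack. The 3XHMT cells (n = 2) received siRNA to Ehmt1, Ehmt2 and Setdb1 at once, 3 genes for enzymes that methylate lysine 9 of histone H3, and the Cbx3 cells (n = 3) received siRNA to Cbx3, the gene for HP1 gamma, a protein of heterochromatin. In the labels the arrays of a group are biological replicates, and nothing says that separate cultures were used, so p-values measure the spread between these samples, which may be technical. They also do not give the parental cell type, the line or the way the pre-iPSCs were made.

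Pou5f1 (Oct4) and Sox2 bind DNA together at many genes of the pluripotent state, their own included, and Klf4, a zinc finger factor, binds many of the same regions. Introduced copies of these 3 genes, often with Myc, a driver of growth and ribosome production, turn somatic cells into induced pluripotent stem cells. Sall4 is a zinc finger factor that binds Pou5f1 and Nanog and recruits the NuRD deacetylase complex, and Lin28a is an RNA-binding protein that blocks maturation of let-7 microRNAs and can itself aid reprogramming. Pre-iPSCs commonly still express the introduced copies. Whether a probe set here reads the cell's own gene or an introduced copy cannot be told apart from these values. In bulk RNA, fewer cells that express a gene and less RNA per cell cannot be told apart either.

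The arrays carry a structure that the siRNA groups do not set. Signal of a control probe set for the middle of 18S ribosomal RNA parted them into 3 sets, called tiers here. The low tier (9.98 to 10.2 on the log2 scale) held control 3, 3XHMT 2 and Cbx3 3, the middle tier (11.2 to 11.5) control 1 and Cbx3 1, and the high tier (12.6 to 12.8) control 2, 3XHMT 1 and Cbx3 2. Array medians lay at 5.87 to 5.90. Of the targeted transcripts, the brightest Cbx3 probe set, which is also annotated to a pseudogene, stood at 42.8% of control in the Cbx3 arrays (limma adjusted p = 0.0453), and in the 3XHMT arrays Setdb1, Ehmt2 and Ehmt1 stood at 63.2%, 66.8% and 79.6% of control at their brightest probe sets, none past the threshold (adjusted p = 0.556, 1.00 and 1.00). In control arrays 6 of 8 markers of embryonic stem cells were above the median of every array; Nanog, at 5.13 ± 0.27 (SD, n = 3), and Dppa3, at 5.48 ± 0.32, were not. Of 10 fibroblast markers only Vim and Fn1 were above it on all 3 control arrays, while Col1a1, Postn, Twist1 and Pdgfra stayed below it on all 8 arrays. The mean signal of the 8 stem cell markers was 7.35 to 8.14 in control, 8.59 to 9.10 in 3XHMT and 7.99 to 8.54 in Cbx3 arrays. That of the fibroblast markers was 6.83 to 6.94, 6.80 to 6.83 and 6.81 to 7.09. The stem cell markers moved unequally, so their mean does not stand for each of them. Nanog averaged 7.94 in 3XHMT and 8.44 in Cbx3 arrays, against 5.13 in control. Zfp42 averaged 10.12 and 6.78, against 7.03, and Tdgf1 11.40 and 10.64, against 11.16.

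RefSeq promoter windows on build GRCm38.p6, from 250 bases before to 50 after a transcript start, were at hand for 4 of the 6 genes, Pou5f1 (2 starts), Sox2, Klf4 and Lin28a. They are shown for Klf4 and Lin28a, whose signals differed most between groups, and for Pou5f1, the bright gene whose signal moved least over the arrays. Capitals mark matches, on either strand, to the E box CACGTG (bound by Myc with Max), the GC box GGGCGGGG (bound by Sp and Klf family factors), the Sox core ACAATG and the octamer core ATGCAA. Klf4 lies at chr4:55532426-55532725 on the minus strand, Lin28a at chr4:134018767-134019066 on the minus strand, and the upstream start of Pou5f1 at chr17:35505782-35506081 on the plus strand.
Klf4: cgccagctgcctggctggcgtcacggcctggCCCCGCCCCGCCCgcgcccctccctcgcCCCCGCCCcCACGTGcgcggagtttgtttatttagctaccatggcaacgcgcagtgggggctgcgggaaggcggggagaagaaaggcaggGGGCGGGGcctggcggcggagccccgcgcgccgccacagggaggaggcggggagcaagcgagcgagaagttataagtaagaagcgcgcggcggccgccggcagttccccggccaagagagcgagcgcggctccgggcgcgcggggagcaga
Lin28a: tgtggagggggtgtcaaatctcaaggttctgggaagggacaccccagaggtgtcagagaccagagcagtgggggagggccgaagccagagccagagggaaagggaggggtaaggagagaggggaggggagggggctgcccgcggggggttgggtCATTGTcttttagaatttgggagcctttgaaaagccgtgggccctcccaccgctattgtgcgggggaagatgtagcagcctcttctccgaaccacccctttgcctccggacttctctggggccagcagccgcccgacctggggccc
Pou5f1: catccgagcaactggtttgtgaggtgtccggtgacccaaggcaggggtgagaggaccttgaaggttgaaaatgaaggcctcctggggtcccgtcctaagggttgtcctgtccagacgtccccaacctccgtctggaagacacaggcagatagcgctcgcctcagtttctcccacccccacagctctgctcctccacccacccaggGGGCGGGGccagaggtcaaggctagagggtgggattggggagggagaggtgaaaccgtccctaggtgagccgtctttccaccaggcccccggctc
The Klf4 window held 40 CG dinucleotides, more than 96.1% of the 32851 windows in the table (median 7), with 1 E box and 4 GC boxes, the 2 farthest from the start overlapping each other. The Lin28a window held 10 CG dinucleotides and 1 Sox core, and the Pou5f1 window 11 and 1 GC box. The window of the other Pou5f1 start, not shown, held 6 CG dinucleotides and 1 Sox core. The Sox2 window, not shown, held 27 CG dinucleotides, 2 GC boxes and 1 octamer core. An E box is found in 7.15% of all windows, a GC box in 17.6%, a Sox core in 12.6% and an octamer core in 10.7%. These matches describe the letters of the windows and say nothing about binding in these cells.

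Pou5f1 signal was high in every group. Probe set 1417945_at read 13.23, 13.14 and 12.59 on control arrays 1, 2 and 3, 12.95 and 13.13 on the 3XHMT arrays, and 12.83, 12.84 and 12.85 on the Cbx3 arrays, all on the log2 scale. The Cbx3 arrays had a mean of 12.84 ± 0.013 (SD, n = 3), whereas the control arrays had a mean of 12.99 ± 0.34 (SD, n = 3), since control 3 was the lowest of all 8. The groups overlapped except that both 3XHMT arrays were above all Cbx3 arrays. The difference was 0.05 ± 0.19 (SE) for 3XHMT against control, with a 95% interval from 0.765-fold to 1.40-fold, and -0.15 ± 0.17 for Cbx3 against control, from 0.688-fold to 1.18-fold (limma adjusted p = 1.00 for both). For 3XHMT against Cbx3 the value was 0.20 ± 0.19 (adjusted p = 0.933). A change of Pou5f1 beyond these bounds is outside the 95% intervals, and a smaller one was not resolved.

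Sox2 signal followed the tiers more than the groups. Probe set 1416967_at read 7.56, 9.34 and 8.27 on control arrays 1, 2 and 3, 9.24 and 7.85 on 3XHMT arrays 1 and 2, and 8.72, 9.40 and 8.42 on Cbx3 arrays 1, 2 and 3. The 3 arrays of the high tier were the 3 highest, whatever the siRNA, and the groups overlapped in each comparison. Against control the difference was 0.16 ± 0.57 (SE) in 3XHMT cells and 0.46 ± 0.51 in Cbx3 cells (limma adjusted p = 1.00 for both), with intervals of 0.446-fold to 2.80-fold and 0.605-fold to 3.13-fold. Within tiers, each Cbx3 array was above the control array of its tier, by 1.17 in the middle tier and by 0.063 and 0.15 in the high and low ones. Both 3XHMT arrays were below it, by 0.091 and 0.42. With the tier as a block the Cbx3 difference was 0.46 ± 0.20 (adjusted p = 0.326) and the 3XHMT difference -0.08 ± 0.24 (adjusted p = 0.954), which turns its direction.

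Klf4 was read by a bright and a dim probe set. The bright one, 1417395_at, read 11.57, 11.18 and 10.20 on control arrays 1 to 3, 11.02 and 10.70 on the 3XHMT arrays, and 11.48, 11.43 and 11.04 on the Cbx3 arrays. The Cbx3 arrays were all above the 3XHMT arrays, and the control arrays spread over both, with control 3 the lowest. The differences from control were -0.12 ± 0.36 (SE) in 3XHMT and 0.34 ± 0.32 in Cbx3 cells (limma adjusted p = 1.00 for both). With the tier as a block the 3XHMT value turned to 0.07 ± 0.20 (adjusted p = 0.954).

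The dim Klf4 probe set, 1417394_at, showed the same order of the groups with wider spacing. It read 7.27, 7.39 and 5.87 on control arrays 1 to 3, 6.23 and 5.98 on the 3XHMT arrays, and 7.78, 8.23 and 6.27 on the Cbx3 arrays. Against the array median it stood at -0.018 on control 3, 0.34 and 0.089 on 3XHMT arrays 1 and 2, and 0.38 on Cbx3 3. On the other arrays it stood 1.40 to 2.34 above it. The dim signal limits the low-tier and 3XHMT values. All Cbx3 arrays again exceeded both 3XHMT arrays, the closest pair being Cbx3 3 and 3XHMT 1. The difference of 3XHMT from Cbx3 was -1.32 ± 0.62 (SE), 2.50-fold lower (limma adjusted p = 0.627). It was -1.13 ± 0.31 with the tier as a block (adjusted p = 0.0801), made up of -2.00 in the high tier and -0.29 in the low tier. The replicate number as a block gave -1.86 (adjusted p = 0.0198, a threshold that 0.961% of all probe sets passed), though the numbers do not pair the 3XHMT arrays. Each Cbx3 array was above the control array of its tier, by 0.84, 0.51 and 0.40 in the high, middle and low tiers. The Cbx3 difference from control, 0.58 ± 0.55 (adjusted p = 1.00), passed in a fit of these 6 arrays alone with the replicate number as a block (adjusted p = 0.0328), where 3.94% of all probe sets passed, but not in the fit of all 8 arrays with the tier as a block (0.58 ± 0.26, adjusted p = 0.341). The 3XHMT difference from control was -0.74 ± 0.62 (adjusted p = 1.00), of which -1.16 in the high tier and 0.11 in the low tier.

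Myc did not part the groups. Probe set 1424942_a_at read 10.79, 10.57 and 9.60 on control arrays 1 to 3, 10.70 and 10.11 on the 3XHMT arrays, and 10.46, 10.34 and 10.05 on the Cbx3 arrays. The lowest array of each group was that of the low tier, and the groups overlapped throughout. The differences were 0.08 ± 0.35 (SE) for 3XHMT and -0.04 ± 0.31 for Cbx3 cells (limma adjusted p = 1.00 for both), with intervals of 0.609-fold to 1.84-fold and 0.594-fold to 1.60-fold. Within the low tier the 3XHMT and Cbx3 arrays were 0.51 and 0.45 above control 3. Control 3, the lowest array for Pou5f1, Myc and both Klf4 probe sets, also had the widest gap between the 3' and 5' control probe sets of Gapdh (0.23, against -0.16 to 0.058 on the other arrays) and of actin (0.60, against 0.17 to 0.28); the part of this in its values was not tested.

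Sall4 was higher in every Cbx3 array than in the control array of its tier. The bright probe set, 1424152_at, read 10.55, 10.96 and 10.70 on control arrays 1 to 3, 11.10 and 10.63 on the 3XHMT arrays, and 10.98, 11.29 and 10.83 on the Cbx3 arrays. The groups overlapped, because control 2 was above Cbx3 3, but within the high, middle and low tiers Cbx3 was above control by 0.33, 0.43 and 0.13. The difference was 0.30 ± 0.18 (SE), 1.23-fold (limma adjusted p = 0.910), and 0.30 ± 0.10 with the tier as a block (adjusted p = 0.205). Probe set 1424153_s_at read 8.67, 9.37 and 8.58 in control, 9.72 and 8.32 in 3XHMT, and 9.13, 10.07 and 8.72 in Cbx3 arrays, again highest in the high tier of each group. Here the Cbx3 arrays were above the control arrays of their tiers by 0.70, 0.46 and 0.14, and the difference was 0.43 ± 0.45, or 0.43 ± 0.13 with the block (adjusted p = 1.00 and 0.137). Neither probe set passed. For 3XHMT against control the 2 probe sets gave 0.13 ± 0.20 and 0.15 ± 0.50 (adjusted p = 1.00 for both), positive in the high tier (0.14 and 0.35) and negative in the low tier (-0.073 and -0.26).

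Lin28a signal was low, and its probe sets did not move together. Probe set 1437752_at read 3.66, 5.54 and 4.55 on control arrays 1 to 3, 5.61 and 6.10 on the 3XHMT arrays, and 4.67, 5.59 and 4.01 on the Cbx3 arrays. Both 3XHMT arrays were above all 6 others, although 3XHMT 1 exceeded control 2 by 0.064 and Cbx3 2 by 0.016. Only 3XHMT 2 was above its array's median. The difference from control was 1.27 ± 0.58 (SE), 2.41-fold with an interval of 0.952-fold to 6.12-fold (limma adjusted p = 1.00, unadjusted p = 0.0604). Within tiers it was 0.064 in the high tier and 1.55 in the low tier. Under the tier block it was 1.02 ± 0.43 (adjusted p = 0.474). Against Cbx3 cells the value was 1.10 ± 0.58 (adjusted p = 0.718), and Cbx3 against control was 0.18 ± 0.52 (adjusted p = 1.00), positive in the middle tier (1.01) and negative in the low tier (-0.53). The other probe set, 1421749_at, stayed between 3.57 and 3.91 on all 8 arrays, below every array median, with a 3XHMT difference of 0.05 ± 0.12 (adjusted p = 1.00).

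**Figure D1:**
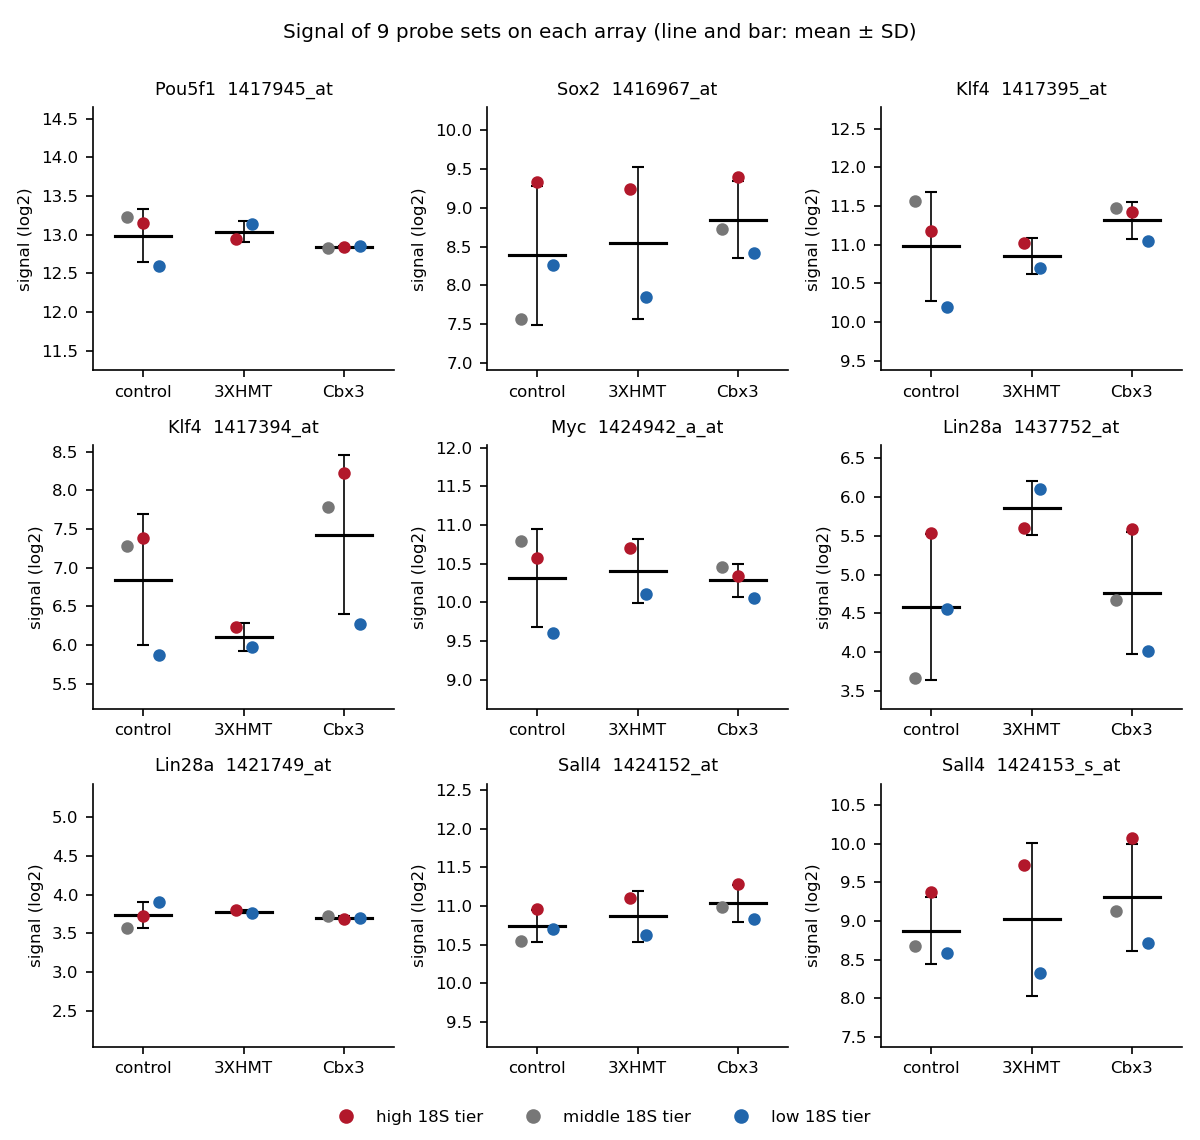
Signal of each of the 9 probe sets (y axis, log2, a window of the same height in each panel) in control, 3XHMT and Cbx3 arrays; points are arrays coloured by tier of the 18S control, lines and bars are the mean ± SD. High-tier arrays top every group for Sox2 and both Sall4 probe sets, and both 3XHMT arrays are the highest for Lin28a 1437752_at.

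Across the 6 genes, 0 of 9 probe sets passed an adjusted p of 0.05 in limma in any of the 3 comparisons. Over all probe sets tested the share called was 0.0555% for 3XHMT against control, 0.0777% for Cbx3 against control and 0.528% for 3XHMT against Cbx3, so a count of 0 of 9 is near this background. At an unadjusted p under 0.05 the count was 0 of 9 in each comparison, where 4.19%, 7.23% and 8.74% of all probe sets had such a p. With the tier as a block 0 of 9 were called in each comparison as well, against 0.699%, 3.43% and 4.66% of all probe sets, while 1 (Lin28a), 3 (Sox2 and both of Sall4) and 3 (Sox2, Klf4 1417394_at and Sall4 1424153_s_at) had an unadjusted p under 0.05, against 10.0%, 15.1% and 17.3% of all. The arrays of 2 groups did not overlap for 1 of 9 probe sets between 3XHMT and control, against 15.4% of all, for 0 of 9 between Cbx3 and control, against 11.9%, and for 5 of 9 between 3XHMT and Cbx3, against 23.4%. Of those 5, Pou5f1 and both Lin28a probe sets were higher in 3XHMT (11.8% of all) and both Klf4 probe sets lower (11.5%). Several of these gaps were small. Lin28a 1421749_at, below every array median, differed by 0.08 ± 0.12 (SE). Lin28a 1437752_at read 5.61 on 3XHMT 1 and 5.59 on Cbx3 2. The Klf4 probe sets read 11.02 and 6.23 on 3XHMT 1, and 11.04 and 6.27 on Cbx3 3. The 1 probe set apart from control was Lin28a 1437752_at, higher in 3XHMT (8.54% of all). Standard errors against control ran from 0.11 for Lin28a 1421749_at to 0.62 for Klf4 1417394_at. The medians over all probe sets were 0.16 for 3XHMT and 0.15 for Cbx3. Signal near background compresses differences, so the small standard error of Lin28a 1421749_at does not show that Lin28a is well resolved.

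**Figure D2:**
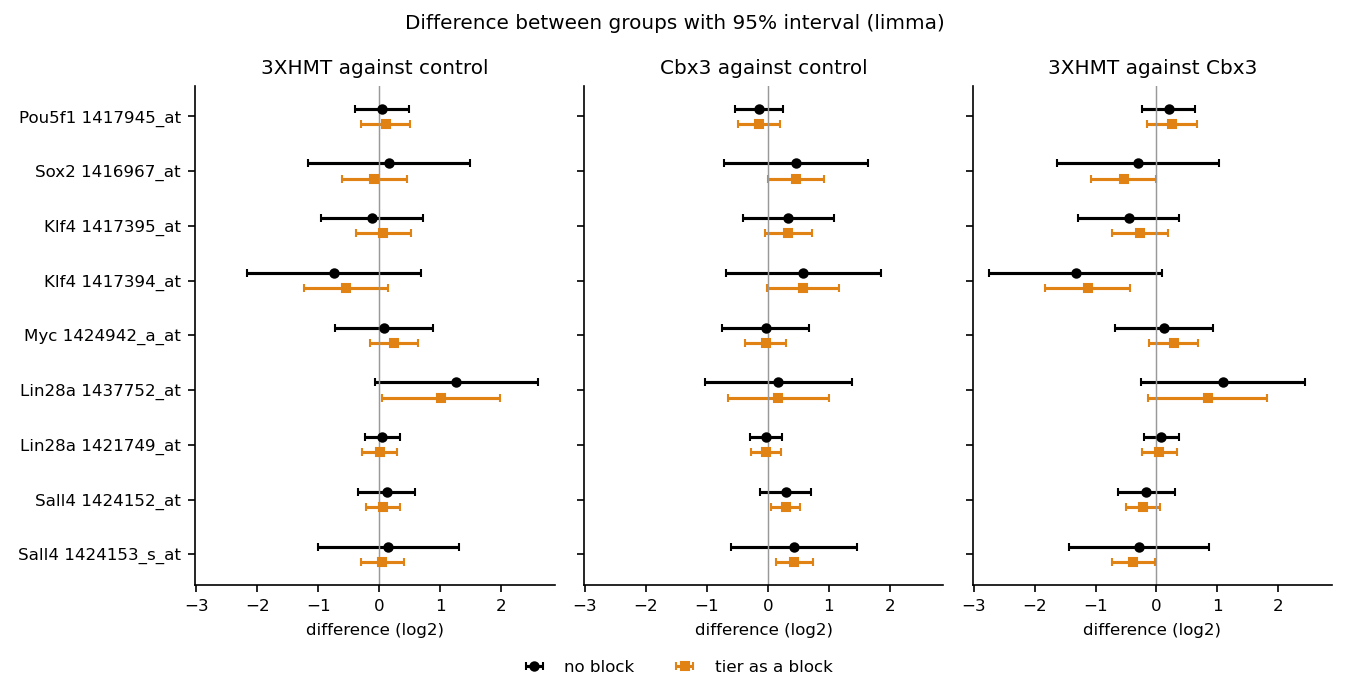
Difference between 2 groups (x axis, log2) for each of the 9 probe sets, with 95% intervals from limma, without a block (black circles) and with the tier as a block (orange squares). The widest intervals without a block are those of Klf4 1417394_at, and 0 of 9 probe sets pass after adjustment in any comparison.

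For Sox2, Klf4, Myc and Sall4 most of the variation lay between tiers. The tiers held 74.6% of the sum of squares over the 8 arrays for Sox2, 74.4% for Myc, 69.2% and 60.6% for the Klf4 probe sets, and 61.6% and 83.3% for the Sall4 probe sets, with a median of 40.0% over all probe sets. The siRNA groups held 9.57% for Sox2, 1.65% for Myc, 20.2% for Klf4 1417395_at and 11.2% for Sall4 1424153_s_at, below the median of 22.7% over all, and 37.2% for Klf4 1417394_at and 30.1% for Sall4 1424152_at, above it. For Pou5f1 the shares were 12.3% for tiers and 18.2% for groups. The Lin28a probe sets had 45.9% and 36.2% for tiers and 40.5% and 10.8% for groups. What the tier stands for was not tested.

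**Figure D3:**
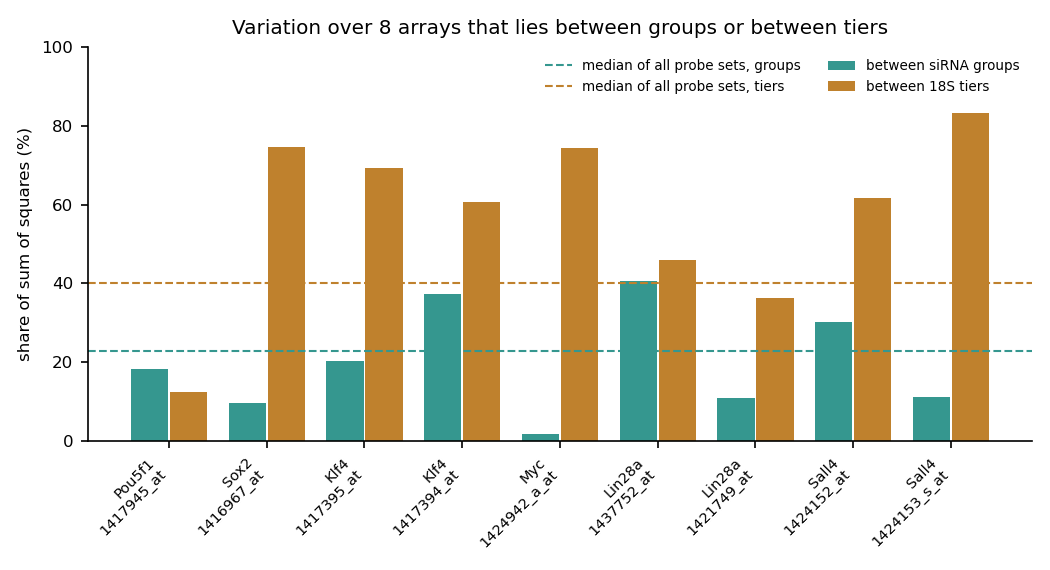
Share of the sum of squares over the 8 arrays (y axis, percent) that lies between siRNA groups (green) and between tiers (brown) for each of the 9 probe sets; dashed lines are the medians over all 45037 probe sets. Tiers exceed groups for 8 of the 9, all but Pou5f1.

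Sox2, Klf4, Myc and Lin28a spanned at least 1 on the log2 scale over the arrays at their brightest probe set, and for these the most similar profiles were sought among 2748 genes that did so too. Likeness was the root mean square difference over the 8 arrays, each gene centred on its own mean. Sox2 was nearest to Tfcp2l1, a transcription factor of naive pluripotent cells (0.21), Atf5 (0.22) and Irf2bpl (0.25). Klf4 was nearest to the tropomyosin gene Tpm2 (0.11), Arhgef19 (0.13) and Abtb1 (0.14), and Myc to the interferon receptor gene Ifnar1 (0.096), Exoc8 (0.11) and the RNA exosome gene Exosc3 (0.12). Lin28a was nearest to the coagulation factor gene F5 (0.22), the DNA methyltransferase gene Dnmt3b (0.34) and the homeobox gene Gbx2 (0.41). These profiles share the 8 arrays and their tiers, so that a small difference is a description of them only.

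Genes that Pou5f1 and Sox2 are known to bind and drive in embryonic stem cells had 1 of 23 measured members called against control in each knockdown. Of all genes at their brightest probe set, 0.0824% were called for 3XHMT and 0.121% for Cbx3 against control. In 3XHMT cells 20 of 23 were higher than in control, with a median of 0.23, beside 51.7% higher and a median of 0.01 over all genes at their brightest probe set. The list was chosen with earlier results of these data known, so its counts and median describe it only. Dppa4, a DNA-binding protein of pluripotent cells, was called over all probe sets, rising from 5.52 ± 0.04 (SD, n = 3) to 8.08 ± 0.75 (SD, n = 2), 5.89-fold (limma adjusted p = 0.0267). Nanog, Zfp42 and Dppa2 stood 7.01-fold, 8.54-fold and 6.42-fold higher with adjusted p of 0.0891, 0.109 and 0.143. In the fit with 1 probe set a gene, Nanog and Zfp42 passed (adjusted p = 0.0434 and 0.0452), where 0.231% of genes did. All 3 passed with the tier as a block (0.00474, 0.000286 and 0.00326). With the block 5 of 23 rose, Dppa4 and Nr0b1 in addition, and 0 fell, beside 1.03% of all genes called in either direction.

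In Cbx3 cells the same list went both ways, with 11 of 23 higher and a median of -0.02. Nanog rose from 5.13 ± 0.27 to 8.44 ± 0.76 (SD, n = 3 each; limma adjusted p = 0.0428) and was the 1 member called. Blocking on the tier, Nanog rose and 4 of the 23 fell, beside 4.80% of all genes called in either direction: Nr0b1, a nuclear receptor gene (-2.93 ± 0.15 (SE), adjusted p = 0.000261; SE 0.51 and adjusted p = 0.121 without the block), Nr5a2 (-1.09, 0.0196 and 0.195), Fgf4 (-0.71, 0.0182 and 0.335) and Dppa2 (-0.85, 0.0496 and 0.731). Set against Cbx3 cells, 3XHMT cells had 4 of 23 called higher and 0 lower, beside 0.819% of all genes: Nr0b1 (12.1-fold, adjusted p = 0.0461), Dppa2 (11.6-fold, 0.0238), Zfp42 (10.1-fold, 0.0320) and Dppa4 (7.34-fold, 0.0102). These calls rest on few arrays. Nanog lost its call whichever of the 8 arrays was left out (adjusted p up to 0.133), as was that of Nr0b1 (up to 0.254). Dppa4 against control was kept in 2 of 8 omissions, those of either 3XHMT array, where the lone 3XHMT array is assumed to vary like the other groups, with log2 differences of 2.03 to 3.09 over all 8. Against Cbx3 cells Dppa4 lost its call without Cbx3 1 or Cbx3 2 and kept it without Cbx3 3 or any control array. With 1 3XHMT array left, its log2 difference was 2.34 or 3.41. Dppa2 kept its call only without a control array, and Zfp42 only without control 1 or control 3. Control arrays do not enter these differences, only the shared spread. Both calls were lost whenever an array of the 2 groups compared was left out.

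Genes that Myc drives were examined beside Myc itself. None of 24 members passed in limma in any comparison. In 3XHMT cells 19 of 24 were higher than in control (median 0.05) and in Cbx3 cells 5 of 24 (median -0.13), beside 51.7% and 53.0% of all genes. All 24 were higher in 3XHMT than in Cbx3 cells without the block, with a median of 0.15, beside 49.5% of all genes and a median of 0.00. With the tier as a block Odc1 turned to -0.012, and the median was 0.16. The members share the same arrays and can move together, so these counts describe them only. At an unadjusted p under 0.05 the counts were 1 higher in 3XHMT (Nolc1, a nucleolar protein, 1.31-fold), 2 lower in Cbx3 and 2 higher in 3XHMT against Cbx3, near the background of 4.19%, 7.23% and 8.74% of all probe sets. Of the pair in Cbx3 cells, Shmt2, a mitochondrial enzyme of serine and glycine metabolism, stood at 0.771-fold and the cell cycle kinase gene Cdk4 at 0.835-fold (adjusted p = 0.393 and 0.679). Under the tier block Cad, Srm and Shmt2, enzymes of pyrimidine, spermidine and one-carbon metabolism, were higher in 3XHMT than in Cbx3 cells (adjusted p = 0.0490, 0.0317 and 0.0114), 3 of 24 where 6.78% of all genes were called in either direction. The partners and antagonists of Myc, 16 measured, had 0 members called with or without the block. Without the block 0.0824%, 0.121% and 0.819% of all genes were called in the 3 comparisons. With it the shares were 1.03%, 4.80% and 6.78%, so that 0 of 16 is near this background. The lowest unadjusted p was that of Mxd1, which competes with Myc for Max, at 1.72-fold in Cbx3 cells (limma adjusted p = 0.380, unadjusted p = 0.00942). Zbtb17, which Myc binds when it represses genes, differed by -0.24 ± 0.12 (SE) and -0.20 ± 0.11 in 3XHMT and Cbx3 cells. Ruvbl2, a cofactor of Myc, differed by 0.27 ± 0.16 in 3XHMT cells.

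Paralogs of the 6 genes were measured for 23 of 24. None passed in limma without the block, where 0.0824%, 0.121% and 0.819% of all genes were called in the 3 comparisons. At an unadjusted p under 0.05 there were 0 members for 3XHMT and 1 for Cbx3 against control, beside 4.19% and 7.23% of all probe sets. Against control 11 and 12 of 23 were higher. With the tier as a block 1 was higher and 1 lower in Cbx3 against control, beside 4.80% of all genes called in either direction. The same held for 3XHMT against Cbx3, beside 6.78%, with Sall3 and Sox15 called each time. Under the tier block Sall3, a relative of Sall4, fell in Cbx3 cells, where it stood at 0.616-fold (adjusted p = 0.0206; 0.307 without the block), the opposite sign to Sall4. Sox15, a relative of Sox2 expressed in embryonic stem cells, rose there with the block, at 1.39-fold (0.0452; 0.876 without), and was lower in 3XHMT than in Cbx3 cells, at -1.14 ± 0.12 (SE) on the log2 scale with the block (adjusted p = 0.00170; 0.352 without). Mycn signal was 14.06 ± 0.06 (SD, n = 3) in control and differed by -0.06 ± 0.10 (SE) and -0.03 ± 0.09 in 3XHMT and Cbx3 cells. Klf9 differed by -0.31 ± 0.17 in 3XHMT cells (adjusted p = 1.00). Klf2 and Klf5, which can stand in for Klf4, differed by 0.30 ± 0.54 and 0.17 ± 0.48 in 3XHMT cells and by 0.38 ± 0.48 and 0.29 ± 0.43 in Cbx3 cells.

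The genes around Lin28a and let-7 showed 0 calls among 18 measured, with or without the block, with 9 of 18 higher in 3XHMT and 12 of 18 in Cbx3 cells (medians 0.02 and 0.08). Without the block 0.0824% and 0.121% of all genes were called against control and with it 1.03% and 4.80%, so that 0 of 18 is near this background. Lin28b, which also blocks let-7, was at 2.50 ± 0.11 (SD, n = 3) in control, below the array medians. Hmga2, a chromatin protein whose transcript let-7 targets, stood at 10.03 ± 0.20 and differed by 0.19 ± 0.16 (SE) and 0.12 ± 0.14. The lowest unadjusted p belonged to Arid3b for 3XHMT (1.35-fold, unadjusted p = 0.0457, adjusted p = 1.00) and Igf2bp1 for Cbx3 cells (1.21-fold, unadjusted p = 0.0446, adjusted p = 0.671), and Trim71, a let-7 target, differed by 0.27 ± 0.18 in Cbx3 cells (adjusted p = 0.939).

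Members of the NuRD complex, through which Sall4 acts, numbered 13, of which 0 were called without the block, where 0.0824%, 0.121% and 0.819% of all genes were called in the 3 comparisons. Hdac2, a histone deacetylase of the complex beside Hdac1, stood at 12.14 ± 0.13 (SD, n = 3) in control, 12.50 ± 0.00059 (SD, n = 2) in 3XHMT arrays and 11.82 ± 0.05 (SD, n = 3) in Cbx3 arrays. Its differences from control were 0.36 ± 0.12 (SE) and -0.32 ± 0.10 (limma adjusted p = 0.890 and 0.469), and 3XHMT against Cbx3 gave 1.60-fold (adjusted p = 0.0619, and 0.0178 once the tier was a block). It passed in the fit with 1 probe set a gene (adjusted p = 0.0363), where 1.51% of genes did. Hdac1 did not move with it, differing from control by -0.009 ± 0.13 (SE) in 3XHMT and 0.15 ± 0.11 in Cbx3 cells. For 3XHMT against Cbx3 Hdac1 gave -0.16 ± 0.13 (limma adjusted p = 0.900). Mta3 differed by 0.23 ± 0.13 in 3XHMT cells (adjusted p = 1.00). With the block Chd3, a helicase of the complex, rose in Cbx3 cells, at 1.51-fold (adjusted p = 0.0207, and 0.497 without). That was 1 of 13, where 4.80% of all genes were called in either direction. For 3XHMT against Cbx3 the block gave 1 member higher, Hdac2, and 1 lower, Chd3 (-0.61, adjusted p = 0.0290), beside 6.78% of all genes.

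**Figure D4:**
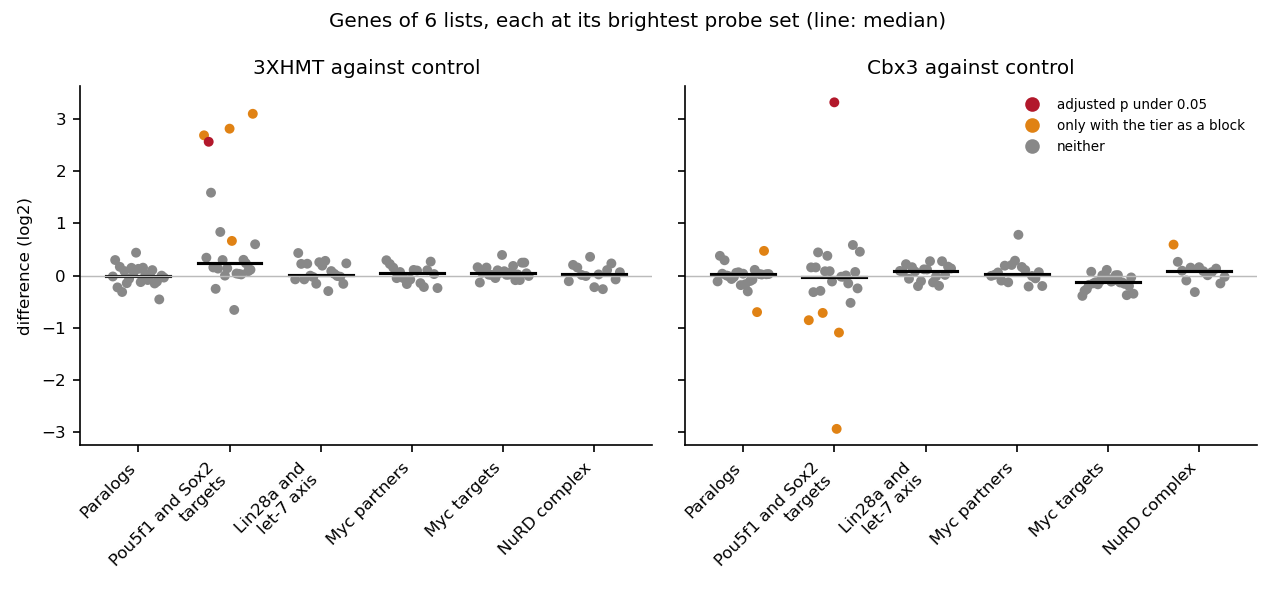
Difference from control (y axis, log2) of each measured gene of 6 lists at its brightest probe set, in 3XHMT cells (left) and Cbx3 cells (right); red points passed limma without a block, orange points only with the tier as a block, and lines are medians. The genes bound by Pou5f1 and Sox2 hold the called points without a block, Dppa4 in 3XHMT and Nanog in Cbx3 cells.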

How the data were processed

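The deposited table holds log2 expression values of 45101 probe sets on 8 arrays of biotin-labelled total RNA, which the submitters' processing notes say the authors computed by RMA (version and settings: not given in the sources used here). RMA normalizes arrays to one distribution, so a shift shared by most genes is removed, and signal near background compresses differences. The number of arrays limits the precision. The 64 array controls entered no test. Names came from the platform annotation: 34945 had 1 symbol, 932 several and 9160 none, and none with several symbols named any of the 6 genes.

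All 8 arrays were fitted together in limma 3.58.1 under R 4.3.3 (eBayes after lmFit; group means, two-sided tests, 5 residual degrees of freedom), with Benjamini-Hochberg adjustment over 45037 probe sets and a threshold of 0.05. Every adjusted p comes from this fit unless another is named. Tiers were set by the 2 widest gaps in the middle 18S control probe set, without use of the groups. Deviations from group means correlated by 0.51, 0.62 and 0.74 between control and Cbx3 arrays of the same replicate number, so the numbers pair these arrays, from the data and not the labels. They do not pair the 3XHMT arrays, at 0.048 and -0.66 with control. The tier block pairs control and Cbx3 arrays in the same way.

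The 6 genes and the 6 gene lists were chosen with earlier results of these data known, the lists from textbook knowledge. Each listed gene stands at its brightest probe set by the mean of the 8 arrays. Of the 124 list entries, 117 were measured. The genes named from a list are those called in a comparison and up to 2 with the lowest p against control. Fgf4, Nr5a2, Cad, Srm, Odc1, Mycn, Klf2, Klf5, Lin28b, Hmga2 and Hdac1 lie outside this rule, named once their values had been seen. Genes like a profile exclude RIKEN, Gm and clone names. The fit was tested on simulated data with known changes.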

Additional observations from a re-analysis of the deposited data

How the results depend on the processing

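The alternatives were cyclic loess, a prior variance that follows the mean, 1 probe set a gene, dim probe sets left out, the 2 groups compared only, the replicate number as a block, the tier as a block and each array left out. Calls of listed genes under these settings were added after seeing the data. Of 417 values for the 6 genes, 384 kept direction and side of the threshold, 31 turned and 2 passed. Many could not turn, because the difference itself stays the same. These are 1 probe set a gene (18 values), dim probe sets left out (21), the prior variance (27) and the 2 groups only (27). Omitting an array of the group not compared also leaves it unchanged. With 1 array left out 23 of 216 turned, and with the tier block 2 of 27. The replicate block turned 4 of 27 over all arrays and 2 of 27 over the groups compared alone. Leaving out dim probe sets leaves no Lin28a value.

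With the replicate block over all arrays, 3XHMT against control became -0.044 for Pou5f1, -0.15 for Myc and -0.071 for Sall4 1424153_s_at, and 3XHMT against Cbx3 became -0.12 for Myc. Over the 3XHMT and control arrays alone the block gave -0.15 for Pou5f1 and -0.27 for Myc in 3XHMT against control. With the tier block, 3XHMT against control became -0.078 for Sox2 and 0.066 for Klf4 1417395_at. The count of the 9 probe sets called moved from 0 to 1 with the replicate block for Cbx3 against control over those 2 groups alone (Klf4 1417394_at, 0.58, adjusted p = 0.0328) and over all arrays for 3XHMT against Cbx3 (the same probe set, -1.86, adjusted p = 0.0198; 3XHMT arrays are not paired by number). The replicate block changed no other call of the 6 genes. The cause was not tested.

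With 1 array left out the count called stayed at 0 in each of the 3 comparisons. For 3XHMT against control the ranges that cross 0 were -0.15 to 0.17 for Pou5f1, -0.54 to 0.86 for Sox2, -0.51 to 0.17 for Klf4 1417395_at, -0.27 to 0.38 for Myc, -0.031 to 0.14 for Lin28a 1421749_at, and -0.11 to 0.36 and -0.55 to 0.85 for Sall4 1424152_at and 1424153_s_at. For Cbx3 against control they were -0.055 to 0.63 for Klf4 1417395_at, -0.40 to 0.20 for Myc, and -0.29 to 0.66 and -0.11 to 0.060 for Lin28a 1437752_at and 1421749_at. Others kept their direction but moved by over 1.5 times, among them Cbx3 against control for Sox2 (0.046 without control 1 to 0.93 without control 2), Klf4 1417394_at (0.097 without control 3 to 1.16 without Cbx3 3), Sall4 1424153_s_at (0.053 without Cbx3 2 to 0.73 without Cbx3 3) and Pou5f1 (-0.35 without control 3 to -0.030 without control 1). For 3XHMT against Cbx3 the ranges that cross 0 were -0.999 to 0.40 for Sox2, -0.17 to 0.42 for Myc, and -0.40 to 0.068 and -0.98 to 0.41 for the Sall4 probe sets. Over all probe sets the calls ranged with 1 array left out from 1 to 23, 0 to 14 and 6 to 186 in the 3 comparisons, against 25, 35 and 238, and were 315, 1547 and 2099 with the tier block. The replicate block gave 67, 153 and 433 over all arrays and 4, 1776 and 0 over the groups compared alone. Signal near background limits Lin28a, and 2 arrays limit 3XHMT.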
